A study of Mus musculus with 50 samples.

Results

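In the *Ezh2* Y726D ESC line, 483 of the 3366 SUZ12 peaks did not touch a SUZ12 peak of WT ESCs. These new SUZ12 sites were selected on their SUZ12 peaks alone: a site was taken when it shared not even 1 bp with a peak of the WT list. The other 2883 peaks of the mutant line, called shared sites here, are given beside them for comparison. The Y726D line carries a homozygous point mutation in *Ezh2* that was introduced into *Ezh1* KO cells, although the SUZ12 sample is labelled with the *Ezh2* change only. The R685C line has a different *Ezh2* point mutation, also in *Ezh1* KO cells. The *Ezh2* KO line lacks *Ezh2* and keeps *Ezh1*, and the *Ezh1/2* dKO line lacks both. All were made by CRISPR/Cas9 in E14TG2a mouse ESCs as clones, grown with 2i/LIF, and the WT line is the unedited parent. Each ChIP-seq or ATAC-seq list used here came from 1 library per line, so no difference between lines in these lists could be tested. RNA-seq had 2 libraries per line for all lines but R685C.

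SUZ12 is a core subunit of PRC2, the Polycomb complex that places methyl groups on lysine 27 of histone H3 through its catalytic subunits EZH1 and EZH2. In ESCs the complex is mostly found at CpG islands of silent developmental genes, where it leaves H3K27me3. Acetylation of the same lysine, H3K27ac, marks active promoters and enhancers, and a single lysine cannot carry both groups.

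In the lines with RNA-seq, the gene deletions were as labelled, while gene counts cannot show a point mutation. *Ezh2* had normalized counts of 598 and 546 in WT, 422 and 613 in *Ezh2* Y726D, and from 0.824 to 1.78 in the KO and dKO lines. *Ezh1* had 227 and 377 in WT and 24.1 and 15.7 in *Ezh2* Y726D. The summed counts of 21 pluripotency genes lay between 23735 and 29471 in all 8 libraries, which held from 3604123 to 5181553 reads. Differentiation markers moved more: the trophectoderm list summed to 599 and 451 in WT and 819 and 1404 in *Ezh2* Y726D. The primitive endoderm list had 2244 and 1636 against 2577 and 3690, and the mesoderm list 85.4 and 78.0 against 129 and 311. These 3 sums were higher in both Y726D libraries. The neural list was not, with 1369 and 574 in WT and 591 and 965 in *Ezh2* Y726D. The part of these markers in the RNA results below was not tested.

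Genomic sequence at the summits is shown for sites of lower and of higher CpG content. The first set holds strong sites inside genes, including sites 409 and 477 bp from a TSS. The second holds sites with more CpGs that were near promoters or had H3K27ac or an R685C peak. Each line gives 121 bases of the mm9 forward strand centred on the summit, with CpG dinucleotides in capitals. The first set comes from the gene for the matrix glycoprotein thrombospondin 1, *Thbs1* (chr2:117940547-117940667 and chr2:117941530-117941650), the mineralization inhibitor *Mgp* (chr6:136821177-136821297), the growth factor binding protein *Igfbp2* (chr1:72895765-72895885) and the zinc finger gene *Zbtb38* (chr9:96588769-96588889).

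Thbs1 site 1: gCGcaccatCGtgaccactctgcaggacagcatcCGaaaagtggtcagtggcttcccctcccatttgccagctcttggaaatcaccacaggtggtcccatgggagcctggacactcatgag
Thbs1 site 8: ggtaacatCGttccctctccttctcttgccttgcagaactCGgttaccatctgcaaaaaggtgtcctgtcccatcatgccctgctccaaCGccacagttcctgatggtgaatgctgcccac
Mgp site 2: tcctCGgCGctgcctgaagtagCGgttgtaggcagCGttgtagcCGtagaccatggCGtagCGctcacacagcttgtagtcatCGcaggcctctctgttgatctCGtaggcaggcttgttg
Igfbp2 site 6: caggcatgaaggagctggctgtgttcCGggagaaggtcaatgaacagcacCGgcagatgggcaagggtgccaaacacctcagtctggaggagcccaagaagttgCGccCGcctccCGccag
Zbtb38 site 10: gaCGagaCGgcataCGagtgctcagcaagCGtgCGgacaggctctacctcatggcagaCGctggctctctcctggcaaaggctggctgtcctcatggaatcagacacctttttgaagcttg

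The second set comes from an intergenic region 357 bp from a TSS of *2700081O15Rik* (chr19:7491502-7491622), an intron of the ceramidase gene *Acer3* (chr7:105457528-105457648), a coding exon of the poly(ADP-ribose) polymerase gene *Parp1* (chr1:182499170-182499290) and an intergenic region near the ammonium transporter gene *Rhbg* (chr3:88045008-88045128).

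2700081O15Rik site 9: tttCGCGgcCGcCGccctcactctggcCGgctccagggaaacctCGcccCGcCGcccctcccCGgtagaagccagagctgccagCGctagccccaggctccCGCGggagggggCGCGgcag
Acer3 site 32: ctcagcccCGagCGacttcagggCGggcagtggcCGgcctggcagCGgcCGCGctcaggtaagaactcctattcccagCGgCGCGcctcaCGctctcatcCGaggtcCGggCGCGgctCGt
Parp1 site 38: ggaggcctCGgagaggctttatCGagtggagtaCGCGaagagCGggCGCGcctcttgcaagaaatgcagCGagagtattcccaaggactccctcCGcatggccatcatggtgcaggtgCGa
Rhbg site 48: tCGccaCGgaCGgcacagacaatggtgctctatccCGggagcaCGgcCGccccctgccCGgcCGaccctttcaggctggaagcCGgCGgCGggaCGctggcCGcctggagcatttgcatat

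Sites are numbered by strength, from 1 for the highest -log10 p. The 121 bases held 3 CpGs at *Thbs1* sites 1 and 8, 5 at *Igfbp2*, 6 at *Zbtb38* and 9 at *Mgp*, and 10 at *Parp1*, 13 at *Rhbg*, 14 at *2700081O15Rik* and 16 at *Acer3*, so the 2 sets grade into each other.

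Most new sites were weak peaks. Their -log10 p in the Y726D SUZ12 list, a score of single peaks and not a comparison with WT, ran from just over 10 to 61.2. The median was 11.7, and the shared sites had a median of 15.1. The list starts at a -log10 p of 10, and 249 new sites lay below 12. The new sites had a median width of 343 bp against 636 bp for the shared sites, and a median fold enrichment of 5.83 against 6.71. Because absence of a WT peak chose the members, these are descriptions. New sites made up 26.9% of all Y726D peaks with a -log10 p from 10 to under 12, and 3.13% of those at 20 or more.

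**Figure D1:**
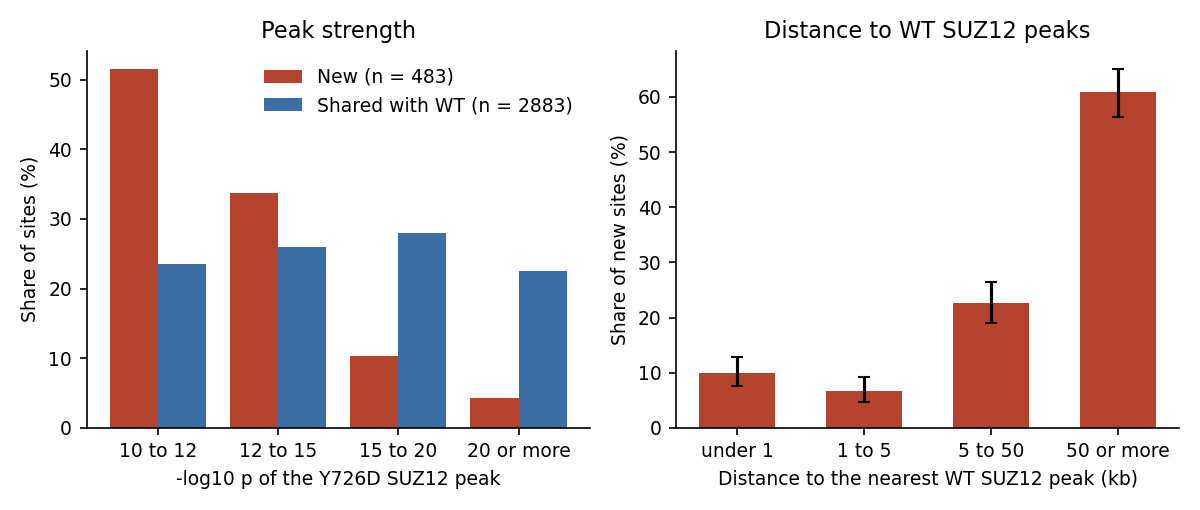
Left, share of the 483 new and 2883 shared SUZ12 sites of *Ezh2* Y726D (y axis, percent) in 4 ranges of -log10 p (x axis). Right, share of the new sites (y axis, percent, with Wilson 95% intervals for counting error) by distance to the nearest WT SUZ12 peak (x axis, kb). New sites were mostly weak, with 249 of 483 below 12, and 294 lay at least 50 kb from a WT peak.

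A majority of the new sites were far from WT SUZ12 peaks. In all, 294 of 483 (60.9%, Wilson 95% interval 56.4 to 65.1) were at least 50 kb from the nearest one and 80 were within 5 kb. Intervals of shares cover counting error only. At the edge of the rule, the closest members included 1 that lay 24 bp (near *Fut7*) and 1 that lay 27 bp (near *Rgs20*) from a WT peak, with -log10 p of 10.8 and 10.5. The sites just outside it shared 1 bp (near *Ror2*), 23 bp (near *Ss18l1*) and 26 bp (near *Irak3*) with a WT peak, with -log10 p of 11.7, 12.6 and 11.2. Sites on both sides of the rule were weak.

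The new sites were near promoters nearly as often as the shared sites. A TSS lay within 5 kb of 402 new sites (83.2%, 79.6 to 86.3) and of 87.8% (86.6 to 89.0) of the shared sites. Within 1 kb the shares were 71.0% and 72.9%. The site covered a TSS in 30.6% of the new and 39.5% of the shared sites, which are wider. Summits lay in coding exons at 152 new sites, in introns at 129, between genes at 99, in untranslated regions at 94 and in non-coding exons at 9. Coding exons held 31.5% of the new and 28.9% of the shared summits.

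Most new sites were also rich in CpG. The 301 bases around the summit held a median of 24 CpGs at new sites and 25 at shared sites, and GC content was 65.4% and 65.8%. The lower quartile differed more, with 15.5 CpGs at new and 19 at shared sites. New sites with 15 or fewer CpGs were 121 of 483 (25.1%, 21.4 to 29.1), against 12.9% (11.7 to 14.2) of the shared sites. Searched on both strands, CGCG occurred in 73.7% of new windows and 84.7% of all Y726D windows of this length. The KLF and SP motif GGGCGGG occurred in 26.3% and 24.5%, the ETS motif CCGGAAG in 6.42% and 3.89%, the E-box CACGTG in 6.63% and 5.20%, and the AP-1 motif TGAGTCA in 2.48% and 1.84%. The NRF1 motif GCATGCGC, the octamer ATGCAAAT and the CRE motif TGACGTCA were each in under 4% of either set, the highest share being 1.04% for the octamer at new sites. All of these motifs except the octamer and the AP-1 motif contain a CpG, so their shares are not independent of CpG content.

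The strongest new sites were different from the bulk. Of the 21 with a -log10 p of at least 20, 13 lay in exons away from any TSS, by which is meant at least 50% exon bases and more than 1 kb to the nearest annotated TSS. This class was defined after the values of the sites were seen. The 21 sites had a median of 9 CpGs in 301 bases, and the 649 shared sites of this strength had 28. In that strength range the exon class made up 61.9% (40.9 to 79.2) of the new and 10.9% (8.76 to 13.6) of the shared sites. Over all strengths it held 62 new sites in 54 genes (12.8%) and 286 shared sites (9.92%), so both sets were closer there. The 62 had a median of 15.5 CpGs against 27 at the shared sites of the same class.

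**Figure D2:**
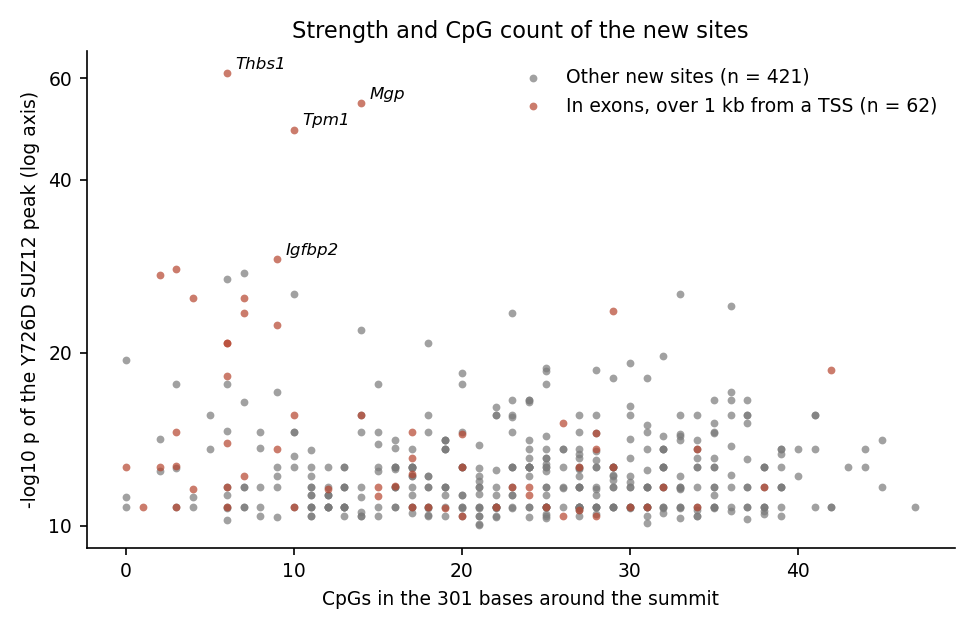
Each point is a new SUZ12 site of *Ezh2* Y726D, with the number of CpGs in the 301 bases around its summit (x axis) and its -log10 p (y axis, log axis). Red points are the 62 sites in exons more than 1 kb from a TSS and grey points the other 421, with the nearest gene named for the 4 strongest. The highest values, up to 61.2, lie at low CpG counts in red.

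*Thbs1* alone held 12 of the new sites, spread over 13.7 kb of chromosome 2 from 117938774 to 117952461. All 12 touched exon bases and 10 were at least 50% exon. Their -log10 p ran from 10.8 to 61.2 and their CpG count from 2 to 12. None of the 12 had an H3K27ac peak in *Ezh2* Y726D, 1 had an H3K27me3 peak in WT and 2 had one in *Ezh2* R685C. The nearest WT SUZ12 peak was 1573 bp away. *Thbs1* RNA was low, with normalized counts of 20.01 and 1.93 in WT, 3.14 and 5.81 in *Ezh2* KO, 28.0 and 23.1 in *Ezh1/2* dKO, and 9.81 and 16.8 in *Ezh2* Y726D. The 2 WT libraries spanned both Y726D values, and the change was not called (log2 fold change 0.82 ± 0.85 SE, limma adjusted p = 0.758).

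The other strong exon sites were single or paired. *Mgp* site 2 (chr6:136821089-136821402) had a -log10 p of 54.4. Site 3 (chr9:66870560-66870893), in an untranslated region of the tropomyosin gene *Tpm1*, had 48.9. Site 4 (chr1:72898474-72898969), in an untranslated region of *Igfbp2*, had 29.1, and site 6, in a coding exon of the same gene 409 bp from an annotated TSS, had 27.6. The collagen cross-linking enzyme gene *Lox* held site 5 at 28.0 and site 53 at 15.6. Site 10 (25.2), in a coding exon of *Zbtb38*, lay 477 bp from a TSS and was outside the exon class by that distance. Site 9 (25.2) was the only one of the 12 strongest outside annotated genes and held 33 CpGs in 301 bases. Sites 7, 8 and 11, with -log10 p of 27.3, 26.8 and 24.9, were among the 12 at *Thbs1*.

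None of the 12 strongest new sites overlapped an H3K27ac peak in *Ezh2* Y726D, an H3K27me3 peak in WT, an R685C SUZ12 peak or a peak of the untagged HA control. *Thbs1* site 1 overlapped an R685C H3K27me3 peak (-log10 p 12.4) and site 9 an R685C H3K27ac peak (10.5). Further down the list the exon class held the smooth muscle gene *Cnn1*, the collagen genes *Col5a1*, *Col5a2* and *Col1a2*, the cytoskeletal linkers *Msn* and *Rdx*, the matrix genes *Sparc*, *Bgn* and *Fn1*, and also ion channel and neuronal genes such as *Grik4* and *Shank3*. Of the 62 sites, 27 (43.5%, 31.9 to 55.9) overlapped no peak of 14 other SUZ12, H3K27me3, H3K27ac and HA lists, against 11.2% (8.50 to 14.5) of the other 421 new sites.

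RNA of the genes holding these exon sites was measured for 52 of 54. *Mgp* had no count above 1.12 in any of the 8 libraries. *Tpm1* was well expressed, with 598 and 330 in WT and 424 and 449 in *Ezh2* Y726D, and *Fn1* reached 3586 and 5380 in WT and 4803 and 3315 in *Ezh2* Y726D. The class thus held genes with hardly any RNA and genes with much of it. For the 41 that passed the filter on low values the median WT level was 17.8 normalized counts per kb of exon, against 41.6 over all genes that passed it. Of these 41, 2 were called in *Ezh2* Y726D (4.88%), beside 2.72% of all genes tested (1.66% higher and 1.06% lower), a count too small to read against it. *Mmp2* was called higher (10.7 and 18.3 in WT, 111 and 43.6 in Y726D, log2 fold change 2.24 ± 0.53 SE, limma adjusted p = 0.0773). *Klb* was called lower (limma adjusted p = 0.0537), with 14.7 and 5.78 in WT and 0 in both Y726D libraries. The choice to name this pair came after their values were known. The fibroblast markers were checked because matrix genes stood out. *Col1a1* had from 0 to 11.5, *Col1a2* from 0 to 5.77, *Dcn* from 0 to 2.47 and *Lum* from 0 to 4.95 normalized counts over the 8 libraries, and *Vim* from 499 to 1774. *Thy1* differed, with 10.7 and 4.81 in WT, 88.2 and 101 in *Ezh1/2* dKO, and 84.7 and 76.1 in *Ezh2* Y726D. It was called higher in *Ezh2* Y726D (log2 fold change 3.30 ± 0.44 SE, limma adjusted p = 0.0130). The other markers tested, *Vim* and *Pdgfrb*, were not called there. Over the whole list the summed counts of the 9 markers in the table were 1837 and 967 in WT and 631 and 1552 in *Ezh2* Y726D, and the other 4 libraries lay between these. These are RNA libraries, and whether other cells were in the SUZ12 chromatin was not tested.

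A second group of strong sites came from 1 locus on the X chromosome. *Mid1*, a ubiquitin ligase gene, held 8 new sites over 20.8 kb (chrX:166407718-166428473), with -log10 p from 12.4 to 23.6. All 8 overlapped H3K27me3 peaks of *Ezh2* Y726D, with -log10 p from 155 to 430, although the Y726D change was made to inactivate EZH2 and *Ezh1* is deleted. Sites 39 and 67 also overlapped H3K27me3 peaks of *Ezh1/2* dKO, which lacks both enzymes (-log10 p 40.8 and 65.6), and of *Ezh2* KO (145 at each). A WT H3K27me3 peak was at 0 of the 8 sites and an R685C one at 3. Of the 8 sites, 6 also overlapped a peak of the HA ChIP from *Ezh1/2* dKO cells without any HA tag, and 5 a SUZ12 peak of *Ezh1/2* dKO. Such peaks were not confined to *Mid1*. At *Eftud1* on chromosome 7, 2 new sites (-log10 p 13.8 and 21.9) both overlapped an untagged HA peak. A Y726D H3K27me3 peak at that locus had a -log10 p of 139. What the peaks in these libraries stand for was not tested, and the sites are kept in the counts. *Mid1* was well expressed, with normalized counts of 778 and 1093 for WT against 798 and 752 for *Ezh2* Y726D. Without these 8 sites the share of new sites with an R685C SUZ12 peak was 5.89% in place of 6.21%.

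The new sites were mostly absent from the SUZ12 lists of the other mutants. *Ezh2* R685C, the line with the other point mutation, had a SUZ12 peak at 30 of 483 (6.21%, 4.39 to 8.73) and at 74.1% (72.4 to 75.6) of the shared sites. *Ezh2* KO had one at 5 new sites, of which 3 were at *Mid1* and the others near *Epb4.1l3* and *Tcfap2c*, and *Ezh1/2* dKO at 7, of which 5 were at *Mid1* and 2 in *Eftud1*. These genes are named by the site's position after the counts were seen. Those peaks were weak as well, with a median -log10 p of 14.1 in the R685C list at new sites and 32.3 at shared sites. The R685C list held 3231 peaks and the Y726D list 3366. Among sites with a Y726D -log10 p from 10 to under 12, 4.42% of new and 59.4% of shared sites had an R685C peak. Of the 30, 16 lay within 5 kb of a WT peak.

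The strongest new sites with an R685C SUZ12 peak were 2 at *Mid1* (sites 39 and 67) and 3 others. Site 22 (chr5:110973485-110974116) lay 121 bp from a TSS of the glycosyltransferase gene *Galnt9*, with -log10 p of 19.7 in Y726D and 11.3 in R685C. It overlapped H3K27me3 peaks in WT (29.5), *Ezh2* KO (153) and *Ezh2* R685C (160). Site 48, between genes near *Rhbg*, had 16.2 in Y726D and 13.3 in R685C, with a WT H3K27me3 peak of 21.1. Site 56, at *4922505E12Rik*, had 15.6 and 12.1, with a WT H3K27me3 peak of 19.5. All 3 thus had H3K27me3 peaks in WT without a WT SUZ12 peak past the threshold.

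H3K27me3 was much rarer at new than at shared sites. A WT H3K27me3 peak was present at 83 new sites (17.2%, 14.1 to 20.8) and at 86.8% (85.5 to 88.0) of the shared sites. In *Ezh2* KO it was 24.6% against 90.8%, and in *Ezh2* R685C 38.3% (34.1 to 42.7) against 95.7%. *Ezh1/2* dKO and *Ezh2* Y726D had such peaks at 8 and 11 new sites, and 8 of the 11 were at *Mid1*. R685C had an H3K27me3 peak where WT had none at 105 new (21.7%) and 289 shared sites (10.02%). The H3K27me3 peaks at new sites were also weaker, with a median -log10 p of 14.7 against 21.1 in WT and 48.4 against 192 in *Ezh2* R685C. Lists of the lines differ widely in length, with 53 peaks in *Ezh1/2* dKO, 3862 in *Ezh2* Y726D, 8956 in *Ezh2* KO, 16754 in WT and 22245 in *Ezh2* R685C. Shares are therefore set beside each other between new and shared sites.

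Closeness to a WT SUZ12 peak went with more of this mark. WT H3K27me3 peaks were at 27 of 80 (33.8%, 24.3 to 44.6) new sites within 5 kb of a WT SUZ12 peak and at 36 of 294 (12.2%, 8.98 to 16.5) of those at least 50 kb away. R685C SUZ12 peaks were at 16 of the 80 and at 7 of the 294 (2.38%, 1.16 to 4.83).

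**Figure D3:**
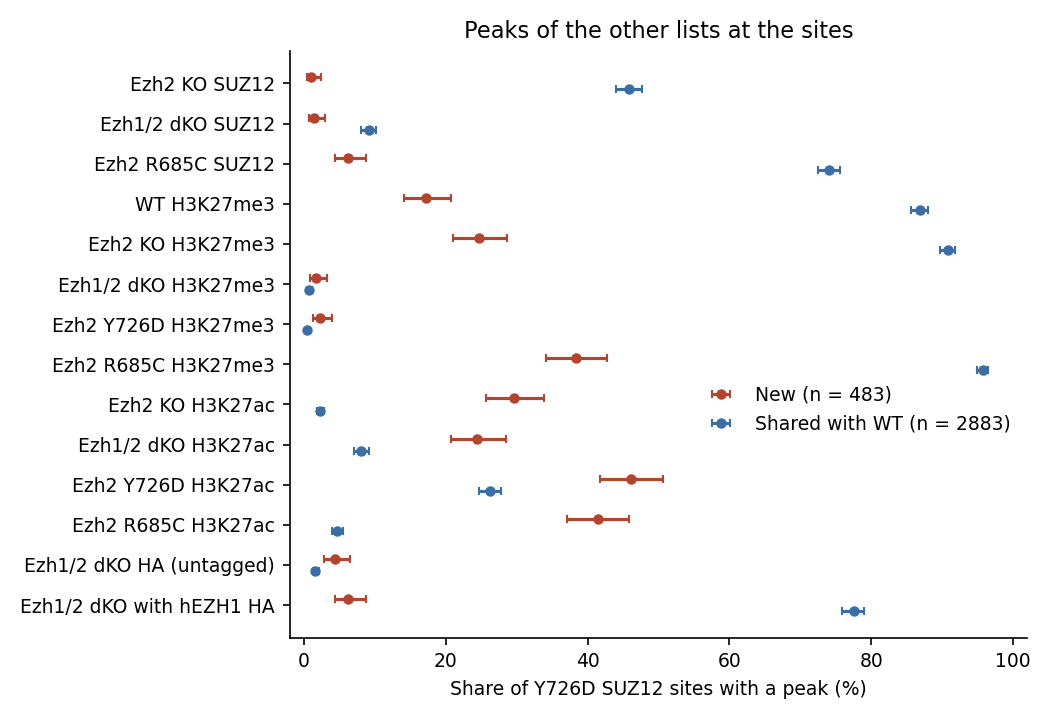
Share of the 483 new (red) and 2883 shared (blue) *Ezh2* Y726D SUZ12 sites that overlap a peak of each list named on the y axis (x axis, percent). Bars are Wilson 95% intervals for counting error, with 1 library per list. Shared sites are far to the right in the H3K27me3 rows of WT, KO and R685C, and new sites in the 4 H3K27ac rows.

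H3K27ac went the other way. In *Ezh2* Y726D, 223 new sites (46.2%, 41.8 to 50.6) overlapped an H3K27ac peak against 26.2% (24.6 to 27.9) of the shared sites. In *Ezh2* R685C the shares were 41.4% (37.1 to 45.9) and 4.68%, in *Ezh2* KO 29.6% (25.7 to 33.8) and 2.29%, and in *Ezh1/2* dKO 24.4% (20.8 to 28.5) and 8.08%. All 4 lines had a peak at 94 new sites (19.5%, 16.2 to 23.2) and at 1.53% of shared sites. A peak in *Ezh2* Y726D and in none of the other mutants was present at 51 new sites (10.6%, 8.12 to 13.6) and at 17.7% (16.3 to 19.1) of shared sites, so acetylation in this line alone was more frequent among the shared sites. The median -log10 p of the Y726D H3K27ac peaks was 21.0 at new and 15.5 at shared sites. The H3K27ac lists held from 17618 peaks in *Ezh1/2* dKO to 41185 in *Ezh2* R685C. WT H3K27ac was not analysed here.

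The strongest new sites with H3K27ac in all 4 lines were at or near promoters. Site 13 (chr9:64188010-64189183), over a TSS of the exonuclease gene *Dis3l*, had a SUZ12 -log10 p of 24.1 and an H3K27ac -log10 p of 48.0 in *Ezh2* Y726D, 46.8 in *Ezh2* R685C, 32.1 in *Ezh2* KO and 26.4 in *Ezh1/2* dKO. Site 25, 30 bp from a TSS of *Ctgf*, a secreted matrix protein gene, had 18.8 for SUZ12 and 24.5 for H3K27ac in *Ezh2* Y726D. Site 28, 3524 bp from *Mir183*, had 18.6 and 25.3. Site 32 at *Acer3* had 18.1 and 14.1, and site 38 at *Parp1*, a DNA repair gene, 17.1 and 27.5. *Parp1* RNA was high in every library, with 2663 and 2168 in WT and 2294 and 2729 in *Ezh2* Y726D, and *Dis3l* had 247 and 163 in WT and 101 and 120 in *Ezh2* Y726D.

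H3K27me3 in WT and H3K27ac in *Ezh2* Y726D rarely met at a new site. Both were present at 14, H3K27ac without WT H3K27me3 at 209 (43.3%, 38.9 to 47.7), WT H3K27me3 without H3K27ac at 69 (14.3%, 11.4 to 17.7) and neither at 191 (39.5%, 35.3 to 44.0). Among the shared sites 66.0% had WT H3K27me3 only, 20.8% both, 5.41% H3K27ac only and 7.77% neither. The 209 acetylated sites without WT H3K27me3 had a median of 27 CpGs in 301 bases and 175 of them (83.7%) had a TSS within 1 kb. The 83 with WT H3K27me3 had 18 CpGs and 49 (59.0%) had a TSS within 1 kb. New sites within 1 kb of a TSS overlapped a Y726D H3K27ac peak at 53.6% (48.4 to 58.9), and those without a TSS in 5 kb at 32.1% (22.9 to 42.9).

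**Figure D4:**
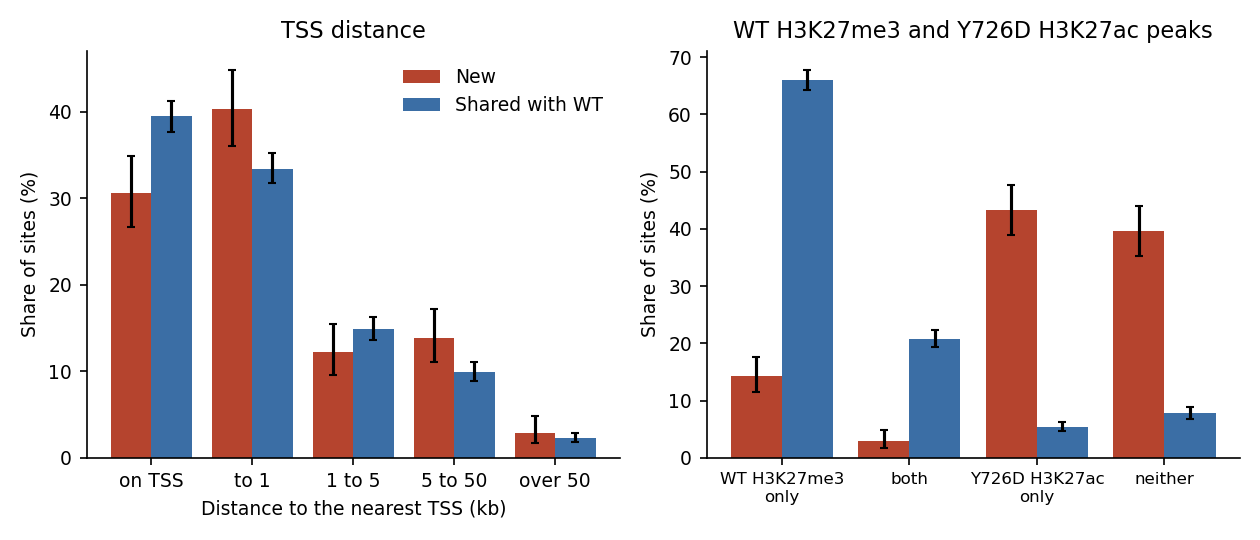
Left, share of the new (red) and shared (blue) sites (y axis, percent) by distance to the nearest annotated TSS (x axis, kb, with 0 for a site on a TSS). Right, share of the sites with a WT H3K27me3 peak, a Y726D H3K27ac peak, both or neither, with Wilson 95% intervals for counting error. Fewer new than shared sites lie on a TSS (30.6% and 39.5%), and the commonest mark class is H3K27ac only for new sites (43.3%) and WT H3K27me3 only for shared sites (66.0%).

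EZH1 was also rarely found at the new sites. After human EZH1 with an HA tag was put back into *Ezh1/2* dKO cells, its HA list overlapped 30 new sites (6.21%, 4.39 to 8.73) and 77.5% of the shared sites. Without sites that the untagged HA control also lists, 17 new sites (3.52%, 2.21 to 5.56) remained, against 76.0% of shared sites. The control itself overlapped 21 new sites (4.35%, 2.86 to 6.56) and 1.63% of the shared sites.

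Open chromatin and lower methylation states were read from broad lists that start at a -log10 p of 1 and so hold many weak regions. ATAC-seq regions covered from 91.7% of the new sites in WT and *Ezh2* KO to 94.0% in *Ezh2* Y726D, and from 95.3% to 96.3% of the shared sites. H3K27me2 regions of WT were at 28.3% (24.5 to 32.6) of the new and 3.54% (2.92 to 4.30) of the shared sites on the 19 chromosomes that every H3K27me2 list holds. In *Ezh2* KO the order was reversed, with 52.2% and 97.4%. *Ezh2* Y726D listed H3K27me2 at 40.8% and 42.6% with a median -log10 p of 1.41 and 1.32. H3K27me1 regions of WT, on the 9 chromosomes that all its lists share, were at 11.9% (8.53 to 16.4) of the new and 0.668% of the shared sites.

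Developmental regulators were far more frequent among the genes at shared sites than among those at new sites. Within 5 kb of a new site lay TSSs of 472 genes, of which 400 code for protein and 50 also had a shared site within 5 kb. Of all annotated protein-coding genes, 1.80% had a new and 8.62% a shared site within 5 kb, which is the background for the lists. Of 226 homeobox genes, 3 (*Lbx2*, *Zhx1* and *Cux2*) had a new site (1.33%) and 139 a shared site (61.5%). Other transcription factor families had 7 of 307 (*Ets2*, *Klf5*, *Rxrb*, *Nfib* and others) at new (2.28%) and 107 at shared sites (34.9%), so neither list stood far from the background at new sites. None of 12 mesoderm, 10 neural and 9 trophectoderm markers was at a new site, while 10, 9 and 4 were at shared sites. Of 16 primitive endoderm markers *Sparc* was at a new site and 8 were at shared sites. Signalling genes had 11 of 256 (such as *Igfbp2*, *Fgfr1*, *Bmp4* and *Notch2*, 4.30%) against 99 (38.7%), and ion channels and neurotransmitter receptors 7 of 281 (such as *Gria2* and *Kcnk15*, 2.49%) against 92 (32.7%). Zinc finger genes named Zfp had 8 of 371 (such as *Zfp664*) against 15. Of 20 pluripotency genes *Klf5* was at a new site and 1 was at a shared site. Of 32 PRC2 and PRC1 subunit genes *Ring1*, *Pcgf6* and *Mtf2* were at new sites and 4 were at shared sites. The ribosomal protein genes had *Rpl7* of 80 at a new site and 0 at shared sites, and the 87 histone genes none at either kind of site. Of 12 fibroblast markers *Vim* and *Col1a2* were at new sites (16.7%) and 2 were at shared sites (16.7%). List members are counted where the annotation holds them. With 483 new and 2883 shared sites, the counts come from sets of unequal size.

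RNA was tested for 334 of the 472 genes, since 390 had a row in the table and the rest of these fell below the filter. The median level of the tested genes in WT was 24.0 normalized counts per kb of exon. Genes at shared sites with no new site within 5 kb had 4.13, and all genes tested 41.6. At new sites with a Y726D H3K27ac peak the median was 37.0, and at new sites with a WT H3K27me3 peak 4.77.

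Few genes at new sites changed in RNA. In *Ezh2* Y726D versus WT, 5 of 334 were called higher and 6 lower (limma, adjusted p under 0.1 and at least a doubling or halving), which is 3.29% of them. Over all 13872 genes tested, 1.66% were called higher and 1.06% lower, 2.72% in all, so the share at new sites was near the background. Genes at shared sites only were called at 8.65% (72 higher and 15 lower of 1006). The median log2 fold change was -0.02 for genes at new sites, -0.01 for all genes and 0.47 for genes at shared sites only. In *Ezh1/2* dKO versus WT, 5 genes at new sites were higher (*Pdlim4*, *Tmem191c*, *Fads6*, *Lpcat2* and *Bgn*) and *Slc27a2* was lower, 1.80% against a background of 4.02% (3.63% higher and 0.389% lower). In *Ezh2* KO versus WT *Cobll1* was the 1 gene at new sites called, with 14.7 and 12.5 in WT and 0 in both KO libraries, against a background of 0.404% (0.0937% higher and 0.31% lower). The comparisons share the WT libraries. The calls in *Ezh2* Y726D rest on a spread estimated over all 8 libraries: with the WT and Y726D libraries alone limma called 0 of the 334, where 20 (5.99%) passed an unadjusted p of 0.05 with a doubling or halving, beside 6.29% of all genes. Leaving out 1 library at a time gave from 7 calls (without Y726D library 2) to 14 (without Y726D library 1), and 3 in place of 6 lower calls without WT library 1. Nothing in the labels ties the 2 libraries of a line to separate cultures, so p-values measure the spread between these libraries.

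*Pdlim4*, a PDZ and LIM domain gene, rose most. Its normalized counts were 14.7 and 8.67 in WT, 27.2 and 51.3 in *Ezh2* KO, 87.4 and 168 in *Ezh1/2* dKO, and 81.1 and 77.2 in *Ezh2* Y726D (log2 fold change 2.70 ± 0.46 SE in *Ezh2* Y726D, adjusted p = 0.0319). Both Y726D libraries were above both WT libraries, and the dKO libraries were as high or higher. *Bmp4*, a secreted growth factor, had 313 and 373 in WT, 413 and 417 in *Ezh2* KO, 343 and 334 in *Ezh1/2* dKO, and 736 and 688 in *Ezh2* Y726D (1.06 ± 0.15, adjusted p = 0.0161). Here the dKO libraries stayed at the WT level, with a log2 fold change of -0.01 ± 0.15. Its site 160 had a SUZ12 -log10 p of 12.6 and a Y726D H3K27ac peak of 25.3, and lay 826 bp from a WT SUZ12 peak.

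*Prmt2*, an arginine methyltransferase gene, had 56.03 and 45.3 in WT and 152 and 182 in *Ezh2* Y726D (1.71 ± 0.32, adjusted p = 0.0424). *Pcbp3*, an RNA-binding protein gene, had 219 and 142 in WT and 424 and 503 in *Ezh2* Y726D (1.39 ± 0.24, adjusted p = 0.0324). *Susd4*, a complement regulator, had 16.0 and 14.4 in WT and 45.5 and 66.0 in *Ezh2* Y726D (1.78 ± 0.42, adjusted p = 0.0795), and its site was the only one of the 11 with a WT H3K27me3 peak (-log10 p 13.7). Each rose in both libraries, and the sites at *Prmt2* and *Pcbp3* had Y726D H3K27ac peaks.

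*Ap3b2*, a vesicle coat subunit of neurons, had the largest fall with all libraries, from 105 and 288 in WT to 56.2 and 17.9 in *Ezh2* Y726D (log2 fold change -2.42 ± 0.57 SE, adjusted p = 0.0773). It was -1.69 without WT library 2 and -1.62 without Y726D library 2, not called in either case and smaller than the fall of *Pdzd7*. *Pdzd7* fell from 28.0 and 29.8 to 6.24 and 6.71 (-2.001 ± 0.50, adjusted p = 0.0906), and its site lay in an exon of the neighbouring gene *Lzts2*. *Bahcc1* fell from 197 and 180 to 66.0 and 57.1 (-1.60 ± 0.27, adjusted p = 0.0324), and also had a shared site within 5 kb. The sialic acid synthesis enzyme gene *Gne* fell from 411 and 245 to 134 and 111 (-1.37 ± 0.29, adjusted p = 0.0527). The fatty acid transporter gene *Slc27a2* fell from 526 and 408 to 152 and 233 (-1.29 ± 0.27, adjusted p = 0.0496), and the deubiquitinase gene *Usp13* from 133 and 150 to 73.1 and 45.9 (-1.27 ± 0.31, adjusted p = 0.0852). For all 6 both Y726D libraries were below both WT libraries. Of the 6 sites, 5 had a Y726D H3K27ac peak, the exception being *Ap3b2*. Such a peak was common, with 191 of the 334 tested genes at new sites that had one, and 6 genes are too few to set against this.

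**Figure D5:**
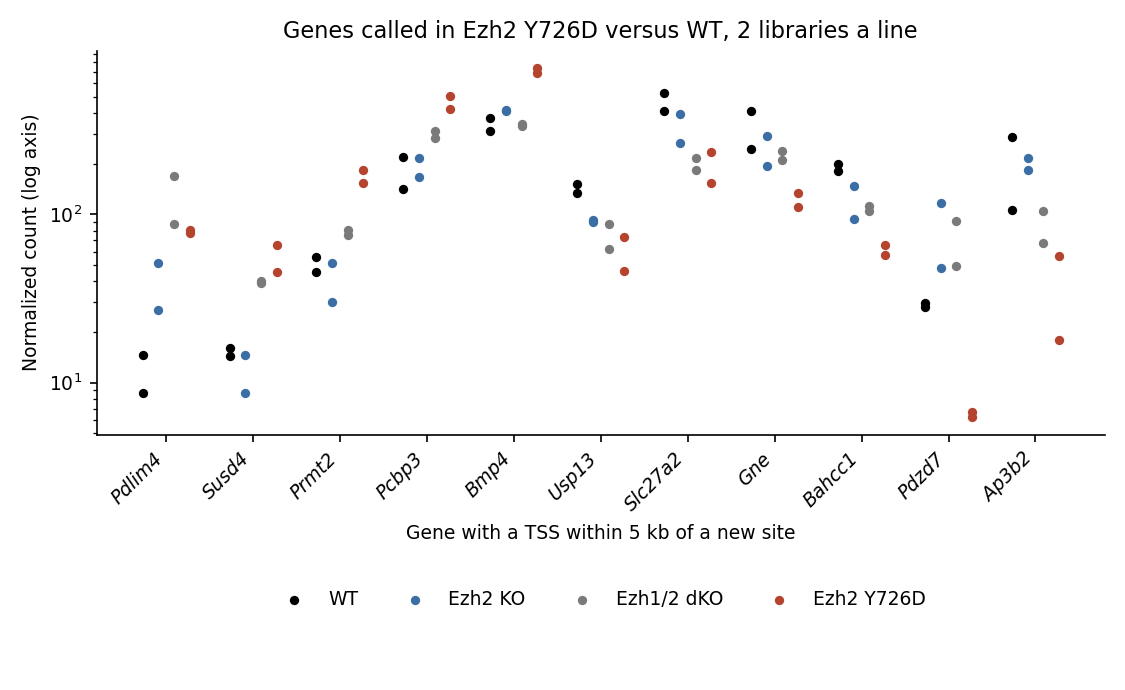
Normalized counts (y axis, log axis) in each of the 2 libraries of every line with RNA-seq, coloured by line, for the 11 genes with a TSS within 5 kb of a new site that were called in *Ezh2* Y726D versus WT (x axis, ordered by fold change). The 2 Y726D points lie above both WT points for the 5 genes on the left and below them for the 6 on the right.

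The PRC2 and PRC1 subunit genes at new sites did not pass the test. *Mtf2*, which helps PRC2 bind CpG islands, had 2963 and 2720 in WT and 2466 and 2306 in *Ezh2* Y726D. *Pcgf6* had 196 and 146 against 128 and 150, and *Ring1* 33.3 and 29.8 against 36.6 and 30.2. The pluripotency factor *Klf5* had 478 and 426 in WT and 357 and 288 in *Ezh2* Y726D, below WT in both libraries. It missed both limits for a call (log2 fold change -0.49, limma adjusted p = 0.196).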

How the data were processed

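Peak lists were deposited per library. Alignment to mm9 was by Bowtie and peak calling by MACS2 after Picard had taken out duplicates, all run by the authors. The deposited -log10 p and fold enrichment score the peaks of each list separately. Whether the input served as control in peak calling is not stated in the sources used here. The 2 deposited HA lists give positions only. Depths of these libraries are not given in the sources used here, so a site without a WT peak is one below the threshold, not one without SUZ12. The deposited RNA signal per gene consists of unstranded HTSeq read counts that the authors divided by DESeq2 size factors, so reads of overlapping antisense genes cannot be told apart. Whole reads could be recovered for 100% of values within a tolerance of 0.01 of a read. Columns with fold changes and p-values of the authors were not used.

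Sites were compared by at least 1 bp of overlap in Python 3.11.15 with numpy 2.4.6, scipy 1.17.1 and pysam 0.24.0. TSSs, exons and sequence came from GENCODE on NCBIM37, the same assembly as mm9, and all peaks ended inside its chromosomes. Of 18055 genes in the RNA table, 16570 matched the annotation by symbol, 854 by a synonym and 631 not at all. RNA was tested with limma 3.58.1 in R 4.3.3 for genes with a mean of at least 5, in a single fit of the 8 libraries. A pseudocount of 1 was added before log2, and folds on this scale understate changes of low genes. A call needed a Benjamini-Hochberg adjusted p under 0.1 and a log2 fold change of at least 1 in size. Alternatives were edgeR 4.0.16, DESeq2 1.42.0, other scalings, filters and pseudocounts, stricter and looser overlaps, and leaving out each RNA library of WT and *Ezh2* Y726D in turn. The KO and dKO libraries were not left out singly. The scripts were tested on simulated data. The 12 strongest sites, the 5 strongest with an R685C SUZ12 peak, the 5 strongest with H3K27ac in all 4 mutant lines, and up to 8 called genes in each direction were named. Members and gene lists were chosen with earlier results of these data known. RING1B, H2AK119ub, input and rescue lists were not analysed here. The series also has SUZ12 libraries of Y726D cells given DMSO or MG132. These were not analysed either, so whether the new sites recur in them was not tested. Some results are not reported here.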

Additional observations from a re-analysis of the deposited data

How the results depend on the processing

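Of the 483 new sites, 21 had a -log10 p of at least 20. With the same limit in the other list, 1.04% had an R685C SUZ12 peak, 25.1% a Y726D H3K27ac peak and 3.52% a WT H3K27me3 peak, and with peaks within 1 kb counted these shares were 8.90%, 53.4% and 30.0%. With 50% of the site covered, the H3K27ac share was 40.6% and the WT H3K27me3 share 12.8%. With no WT SUZ12 peak within 5 kb, the R685C SUZ12 share was 3.47% and the WT H3K27me3 share 13.9%. With the Y726D H3K27ac list cut to the length of the shortest one, 32.1% had a peak. A TSS lay within 1 kb of 71.0%, within 10 kb of 88.0% and, without the exon sites, within 5 kb of 87.2%. Of the 25 alternatives for shares, 11 stayed inside the 95% interval of the value reported.

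Of genes at new sites, 11 were called in *Ezh2* Y726D versus WT (5 higher, 6 lower). Without a filter on low values limma called 7, of which 3 lower, and with the WT and Y726D libraries alone 0 (0 higher, 0 lower), where 20 genes passed an unadjusted p of 0.05 with a log2 fold change of at least 1 in size (5.99%, beside 6.29% of all genes) and the reported fit had 26 (7.78%, beside 7.57%). Of all genes that fit called 20 higher and 12 lower, the reported fit 230 and 147, edgeR on recovered reads 200 and 127, DESeq2 287 and 192 of 13334, and the block with WT numbers exchanged 470 and 278. Without Y726D library 1 the split was 216 and 330, and with quantile normalization 174 and 153. At new sites edgeR called 9 and DESeq2 15, of which 10 lower. A TSS limit of 20 kb gave 8 higher calls. Leaving out 1 library gave from 7 to 14 calls, from 3 to 5 higher and from 3 to 9 lower. With a replicate block 10 were called (4 higher, 6 lower), and with the WT numbers exchanged, chosen after seeing the data, 18, of which 11 lower. Deviations of WT and Y726D libraries with the same number correlated at -0.41 and other pairs of lines at up to 0.29, so the numbers were not treated as pairing. The cause of these differences was not tested. Of the 15 alternative fits, *Pdlim4*, *Pcbp3* and *Bahcc1* were called in 14, *Bmp4* in 13, *Ap3b2* in 10, *Susd4* in 8, and *Usp13* and *Pdzd7* in 7.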
